A study of Drosophila melanogaster with 11 samples.

Results

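Glutathione S-transferases (GSTs) and UDP-glycosyltransferases (UGTs) were followed in heads of male Drosophila melanogaster before and after 10 days at 18, 25 or 29 °C. The genes were taken by name from the linear (not circular) transcripts: every symbol that starts with Gst and a class letter, or with Ugt and a number, and that averaged 10 or more normalized reads over the 11 libraries. Of 13804 linear genes, 67 had such a name (34 Gst and 33 Ugt). The level filter kept 59 of them, 31 Gst and 28 Ugt, and they are described here among the 12676 linear genes that passed the same filter. None of the 1928 circular RNA entries named a Gst or Ugt host. The genes just inside the filter were GstE10 with a mean of 12.5 and Ugt37C2 with a mean of 12.7 normalized reads, and those just outside were GstD5 with 9.85 and GstD4 with 9.41.

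The series profiled total RNA of fly heads to ask how transcripts, circular RNAs in particular, change with age and with temperature met in adult life. All flies were wild-type CantonS males raised at 25 °C in 12:12 light:dark. They were mated, separated under CO2 and given 1 day to recover. The study's methods give the age of the males in the temperature experiments as 3 days. Heads were collected just before exposure (called pre, 3 libraries) or straight after 10 days at 18 °C (3 libraries), 25 °C (2 libraries) or 29 °C (3 libraries). Each library came from pooled flies of several vials, so a value is an average over animals. The pre flies were 10 days younger than all exposed flies, so age differs in every comparison with pre, and only at 25 °C did the temperature stay that of rearing. The sample labels name the tissue as head, whereas the series description speaks of brains. Because heads were measured whole, fewer cells of a type and less RNA per cell cannot be told apart.

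GSTs join the tripeptide glutathione to electrophilic compounds such as plant toxins, insecticides and the aldehydes formed when lipids oxidise. Insects carry large Delta and Epsilon classes of their own, beside the Sigma, Theta, Omega and Zeta classes that they share with other animals. UGTs join a sugar from a UDP-sugar to small lipophilic molecules, which makes them soluble and easier to export. The sugar is chiefly glucose in insects and glucuronic acid in vertebrates. Fat body, gut and excretory tissue are known for both families, and in the head they are also known from glia and from the support cells of the antenna, where they clear odorants.

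Libraries held 32.1 to 52.4 M reads (M, 1e+06 reads) before exposure, 51.0 to 123 M at 18 °C, 56.4 to 62.9 M at 25 °C and 54.0 to 76.9 M at 29 °C. A count of 3 reads corresponded to between 1.42 and 5.98 normalized reads, depending on the library. The head label was checked against marker genes. Photoreceptor, neuron, glia, fat body, muscle and pigment cell lists were all present, while 4 testis genes together reached only 33.1 to 79.9 normalized reads in any library. Accessory gland and midgut genes, also chosen as absent from a clean head, were detected. The 2 accessory gland genes, mostly Acp36DE, summed to between 442 and 1037 normalized reads over the libraries. The 5 midgut genes, mostly LManII, summed to between 27337 and 56131. All 10 pairs of libraries within a group differed by more than sampling noise, so each library counted as a sample. As no source says more than biological replicate, a p-value measures the spread between these libraries. Of the 59 genes, 31 (16 Gst and 15 Ugt) were called in at least 1 of the 6 comparisons and 28 (15 and 13) in none. A gene was called where limma's adjusted p (Benjamini-Hochberg over all 12676 genes) was under 0.05 and its log2 fold change exceeded 0.5 in size.

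**Figure D1:**
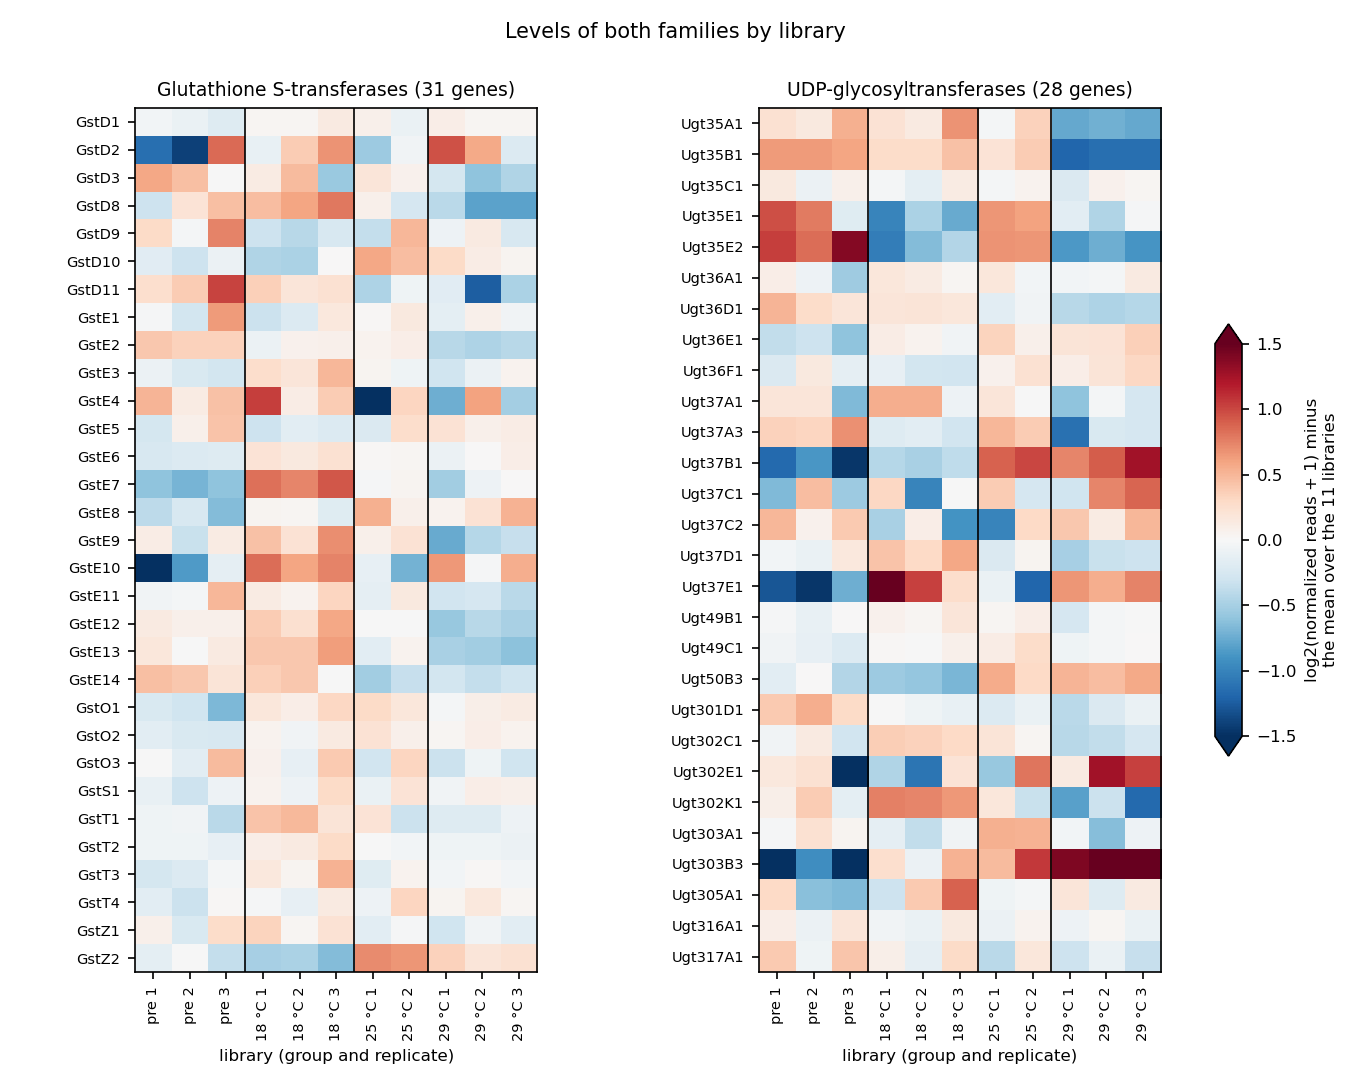
Levels of the 31 Gst genes (left) and the 28 Ugt genes (right) in the 11 libraries, as log2(normalized reads + 1) minus the gene's mean over all libraries, from blue (below the mean) to red (above the mean), with colours saturating at 1.5. Ugt35B1 and Ugt35A1 were low in all 3 libraries at 29 °C, and Ugt37B1 and Ugt50B3 were high in all libraries at 25 and 29 °C.

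Set per kilobase of merged exon, GstD1 was the most abundant member, with 26460 normalized reads per kb averaged over all libraries. GstD1 is a Delta-class enzyme that breaks down DDT and whose gene is widely used as a reporter of oxidative stress. GstE12 followed with 13946 and GstE9 with 13097 normalized reads per kb. The highest Ugt levels per kb were those of Ugt35C1 (4179), Ugt35B1 (3248) and Ugt302C1 (2210). Ugt35C1, also known as Ugt86Dd, is known for its role in larval nicotine resistance. The libraries of GstD1 were at 21610.2, 20751 and 19516 normalized reads before exposure, 22800.1, 22715 and 24346 at 18 °C, 23399 and 20856 at 25 °C and 23944, 22744 and 22684 at 29 °C. Those libraries differed little: over the 6 comparisons the log2 fold changes of GstD1 ran between -0.01 and 0.18 and it was called in none. Ugt35C1 had 7696, 6567 and 7367 normalized reads in the pre libraries, 6823, 6290.3 and 7596 at 18 °C, 6828 and 7243 at 25 °C and 5975, 7297 and 7126 at 29 °C. Its groups overlapped throughout, with log2 fold changes between -0.09 and -0.02.

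In the first comparison 10 days at 29 °C were set against 10 days at 18 °C in flies of the same age. In flies at 29 °C, 13 of the 59 genes were lower and 3 higher than in flies at 18 °C. Among Gst genes 7 were called lower and 1 higher, which is 25.8% of 31, and among Ugt genes 6 were called lower and 2 higher, which is 28.6% of 28. Over all 12676 genes the share called was 10.6%, with 5.29% lower and 5.36% higher. The median log2 fold change was -0.33 over the Gst genes and -0.10 over the Ugt genes, beside 0.00 over all genes. Groups did not overlap for 19 Gst and 14 Ugt genes, beside 42.9% of all genes, and 16 Gst and 11 Ugt genes had an unadjusted p under 0.05, beside 30.5% of all genes. Rescaled to equal linear totals, 2 Gst genes were higher and 6 lower. Summed over the family, Gst genes held 85268 ± 2033 normalized reads (SD, n = 3) at 29 °C and 106481 ± 9185 normalized reads (SD, n = 3) at 18 °C. The Ugt sum was 34331 ± 1939.8 normalized reads (SD, n = 3) at 29 °C and 43412 ± 2188 normalized reads (SD, n = 3) at 18 °C. The 3 libraries at 29 °C lay below the 3 at 18 °C in both sums. GstE12 made up 55.1% and GstE9 31.6% of the Gst difference, and Ugt35B1 made up 43.5% of the Ugt difference.

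**Figure D2:**
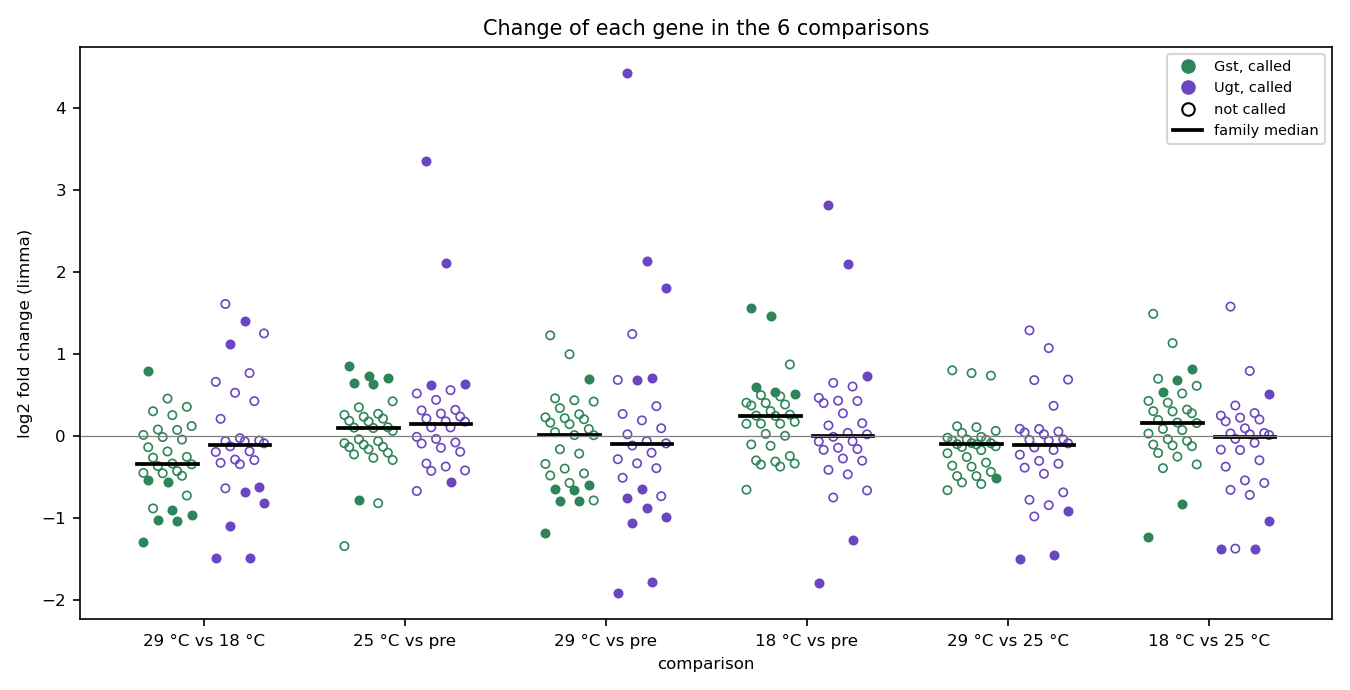
The limma log2 fold change (vertical axis) of each Gst gene (green) and each Ugt gene (purple) in the 6 comparisons. Filled circles passed both thresholds, open circles did not, and black lines are family medians, which reach -0.33 for Gst at 29 versus 18 °C and stay within 0.25 of 0 elsewhere.

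The insect-specific Epsilon class held 5 of the 7 Gst genes called lower at 29 than at 18 °C. They were 5 of the 14 Epsilon genes tested. The class sum was 32269 ± 2331 normalized reads (SD, n = 3) at 29 °C and 54121 ± 6013 normalized reads (SD, n = 3) at 18 °C, a ratio of 0.60. Normalized reads of GstE12 were 20889, 19921 and 19969 before exposure, 24711, 22481 and 28312 at 18 °C, 18829 and 18902 at 25 °C and 12793, 14174 and 13480.0 at 29 °C. All libraries at 29 °C lay below all others and all libraries at 18 °C above all others (log2 fold change -0.90 ± 0.083 (SE), limma adjusted p = 8.83e-05). For GstE9, the pre libraries held 10686, 7890.2 and 10805 normalized reads, those at 18 °C 13460.3, 11541 and 16119, those at 25 °C 10433 and 11555 and those at 29 °C 5865, 7359 and 7809. GstE9 was 1.96-fold lower at 29 than at 18 °C (log2 fold change -0.96 ± 0.16 (SE), limma adjusted p = 0.0022), again with no overlap between the groups. Both genes overlap an antisense neighbour at their ends, GstE12 with CG3894 over 33 nt and GstE9 with imd over 40 nt. Other genes called in some comparison do so too: Ugt36E1 with CG17597 over 48 nt, GstE13 with CG18659 over 6 nt and low-level GstE10 with the far more abundant GstE1 over 20 nt. Whether reads were counted by strand is not given in the sources used here.

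GstE7, GstE13 and GstE14 were the other Epsilon genes called lower at 29 than at 18 °C. In the pre libraries GstE7 stood at 619, 580.3 and 622 normalized reads, at 18 °C at 1670.3, 1572 and 1805, at 25 °C at 931 and 969.8 and at 29 °C at 657, 893 and 949. The 18 °C libraries stood above all others, and those at 29 °C overlapped with those at 25 °C (log2 fold change -1.03 ± 0.13 (SE), limma adjusted p = 0.000446). Before exposure GstE13 measured 638, 565 and 624 normalized reads, and after it 749.7, 751 and 875 at 18 °C, 507 and 586 at 25 °C and 405, 394 and 369 at 29 °C. The group means fell in the order 18 °C, pre, 25 °C and 29 °C, though the pre and 25 °C libraries overlapped. All libraries of GstE13 at 29 °C lay below every other library (log2 fold change -1.02 ± 0.10 (SE), limma adjusted p = 0.000125). The libraries of GstE14 were at 1391, 1354 and 1165 normalized reads before exposure, 1303, 1347 and 1015 at 18 °C, 708 and 805 at 25 °C and 839.8, 794 and 831 at 29 °C. GstE14, known as noppera-bo, is needed in steroid-producing cells for the synthesis of the moulting hormone ecdysone. Its 29 °C libraries lay below those at 18 °C (log2 fold change -0.56 ± 0.12 (SE), limma adjusted p = 0.00868), and the call was lost without 18 °C replicate 2 and with sequencing depth in the model.

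**Figure D3:**
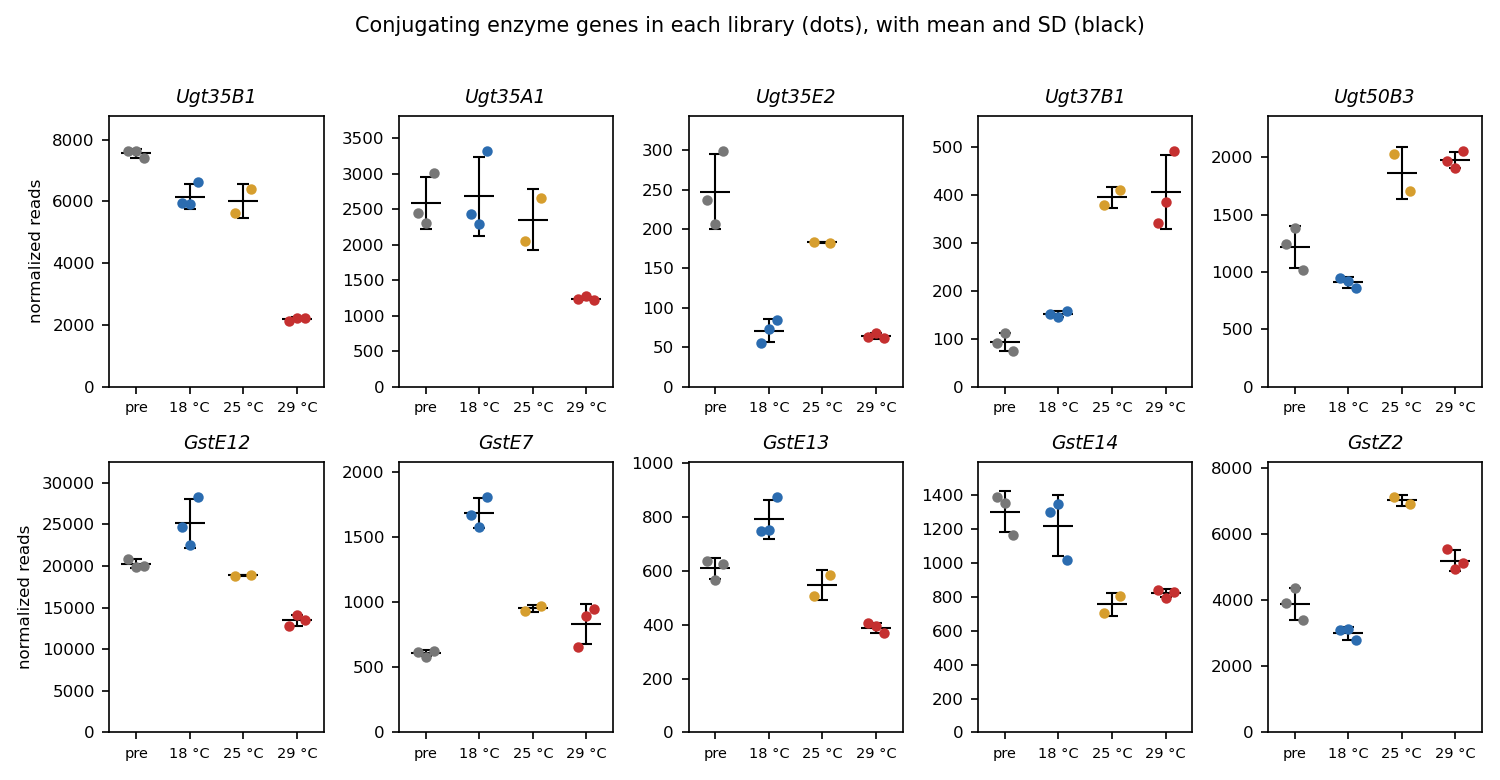
Normalized reads (vertical axes) of 10 genes in each library (dots) by group, with the mean and SD in black. Ugt35B1 averages 2201 at 29 °C against 6152 at 18 °C, and GstZ2 averages 7029 at 25 °C and 5208 at 29 °C, above pre and 18 °C.

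Among the other classes, GstT1 was lower and GstZ2 higher at 29 °C. GstT1 had 1169, 1177 and 925 normalized reads in the pre libraries, 1644, 1715 and 1391 at 18 °C, 1404 and 974 at 25 °C and 1064, 1063 and 1158 at 29 °C. The groups at 29 and 18 °C did not overlap, but the difference was near the threshold (log2 fold change -0.53 ± 0.15 (SE), limma adjusted p = 0.0318) and was not called without 18 °C replicate 1 or 2 or without any library at 29 °C. Normalized reads of GstZ2 were 3931, 4366 and 3404 before exposure, 3102, 3134 and 2786 at 18 °C, 7137 and 6922 at 25 °C and 5548, 4952 and 5124 at 29 °C. Zeta-class GSTs act as maleylacetoacetate isomerases in tyrosine breakdown. GstZ2 was the only Gst gene called higher at 29 than at 18 °C (log2 fold change 0.79 ± 0.094 (SE), limma adjusted p = 0.000342), and its 5 libraries from 25 and 29 °C lay above all 6 others. Its neighbour GstZ1, 384 to 595 normalized reads across all libraries, was not called in any comparison. The low-level Delta gene GstD8 had 16.1, 11.98 and 12.03 normalized reads at 29 °C and 30.2, 33.2 and 38.2 at 18 °C (log2 fold change -1.28 ± 0.29 (SE), limma adjusted p = 0.0117), and its close Delta copies make the assignment of its reads uncertain.

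Among the UGTs, both Ugt35B1 and Ugt35A1 were lower, adjacent genes at 3R:11168503-11170246 and 3R:11170817-11172664 on the reverse strand (dm6). For Ugt35B1, the pre libraries held 7627, 7633 and 7401 normalized reads, those at 18 °C 5935, 5899.9 and 6621, those at 25 °C 5634 and 6391 and those at 29 °C 2136, 2237 and 2230.3. The 3 libraries at 29 °C lay close together and below the other 8 (log2 fold change -1.48 ± 0.070 (SE), limma adjusted p = 2.4e-06). The transcript of Ugt35B1 was first described as specific to the antenna, where the enzyme was proposed to clear odorants. In the pre libraries Ugt35A1 stood at 2449.7, 2305 and 3007 normalized reads, at 18 °C at 2426, 2297 and 3319.6, at 25 °C at 2049 and 2653 and at 29 °C at 1229, 1269.7 and 1221. Here too the 29 °C libraries lay below every other library and varied little among themselves (log2 fold change -1.09 ± 0.15 (SE), limma adjusted p = 0.000905). Before exposure Ugt302C1 measured 4184, 4762 and 3534 normalized reads, and after it 5571, 5513 and 5322 at 18 °C, 4949 and 4411 at 25 °C and 3240.3, 3352 and 3625 at 29 °C. Flies at 29 °C had less than flies at 18 °C, with no overlap (log2 fold change -0.68 ± 0.10 (SE), limma adjusted p = 0.00127). The libraries of Ugt302K1 were at 184, 226 and 156 normalized reads before exposure, 293, 289 and 271 at 18 °C, 194 and 137 at 25 °C and 97.7, 138 and 76.7 at 29 °C. In this gene the 29 and 18 °C groups were also apart (log2 fold change -1.48 ± 0.23 (SE), limma adjusted p = 0.00147), with the pre libraries between them and 25 °C replicate 2 within the range at 29 °C.

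These 4 genes sit in a stretch of 26.9 kb with 9 Ugt genes at 3R:11151026-11177910, of which 8 passed the level filter. At 29 against 18 °C 4 of the 8 were lower, while Ugt35E2, Ugt35E1, Ugt302E1 and Ugt303A1 in the same stretch were not called. Ugt35C1, which lies alone at 3R:11126597-11128328, was not called. In the Epsilon cluster (10 genes in 13.2 kb at 2R:18396638-18409835), 2 of 10 were lower, GstE7 and GstE9, which lie on either side of GstE8. GstE8 had 338, 375 and 281 normalized reads in the pre libraries, 454, 453 and 389 at 18 °C, 642 and 466 at 25 °C and 460.2, 514 and 638 at 29 °C. GstE8 was not called between 29 and 18 °C (log2 fold change 0.31). In the Delta cluster (10 genes in 20.8 kb at 3R:12364776-12385624, 7 of them over the filter), GstD8 alone was called. Adjacent genes could thus differ in their calls. Where near-identical stretches of neighbours share reads, the split between them depends on how the authors treated reads that map to several places, which is not given in the sources used here.

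**Figure D4:**
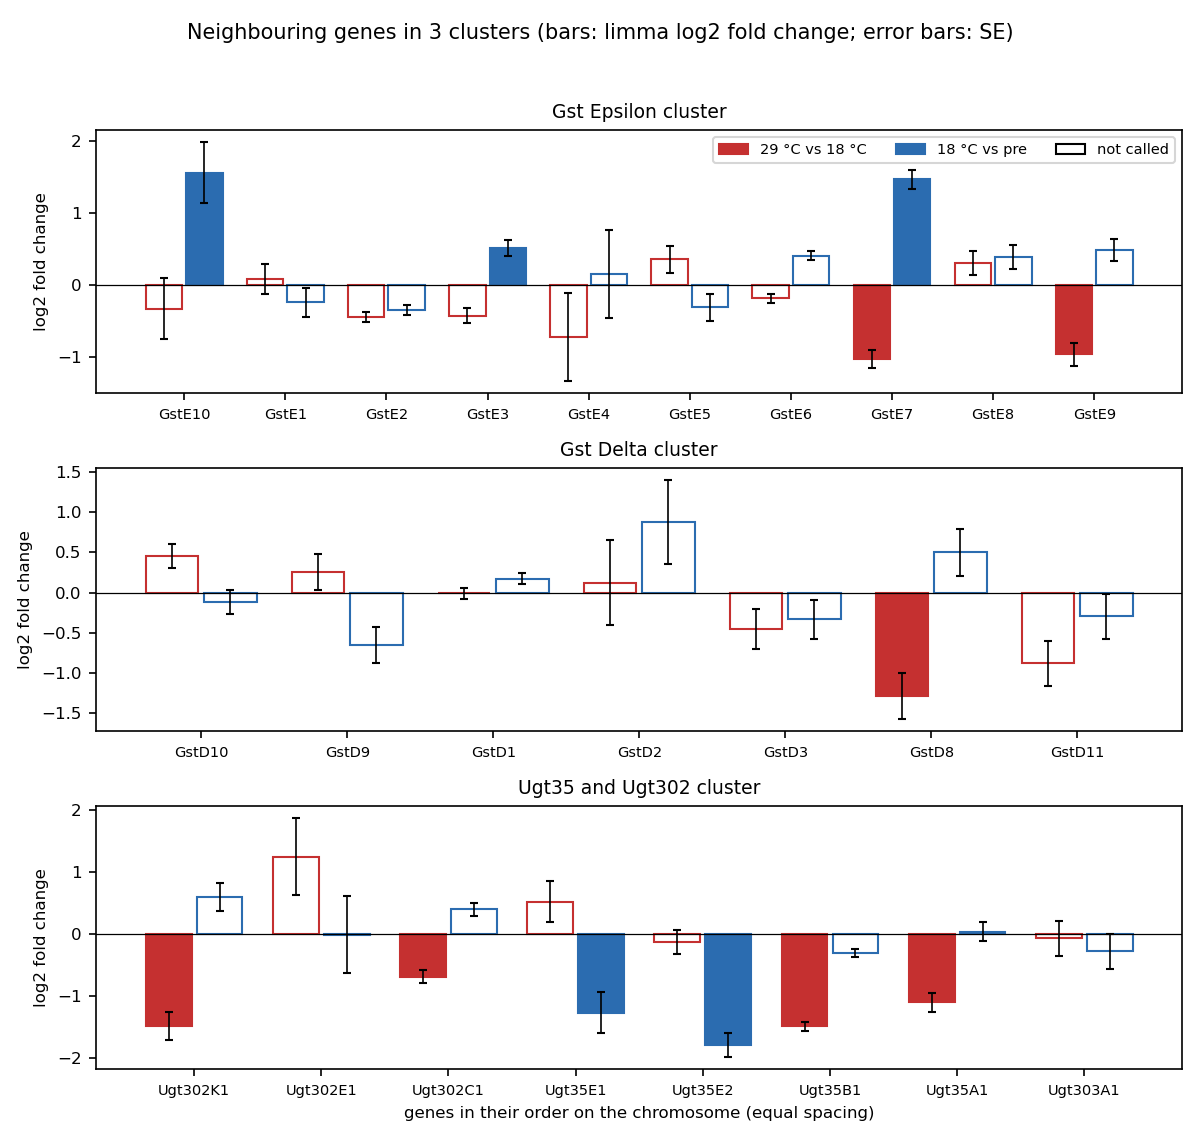
Limma log2 fold changes with SE of the genes in 3 clusters, in chromosomal order and equally spaced, for 29 versus 18 °C (red) and 18 °C versus pre (blue), with open bars where a gene was not called. In the Ugt35 and Ugt302 cluster 4 of 8 genes are lower at 29 than at 18 °C, and Ugt35E2 and Ugt35E1 are lower at 18 °C than pre.

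Outside that cluster, Ugt37D1 and Ugt36D1 were lower at 29 than at 18 °C, and Ugt37B1 and Ugt50B3 were higher. Normalized reads of Ugt37D1 were 3176, 3037 and 3634 before exposure, 4396, 4004 and 4869.6 at 18 °C, 2813 and 3366 at 25 °C and 2303, 2581 and 2625 at 29 °C. The 18 °C libraries were the highest and the 29 °C libraries the lowest (log2 fold change -0.82 ± 0.10 (SE), limma adjusted p = 0.000539). For Ugt36D1, the pre libraries held 1739, 1487 and 1392 normalized reads, those at 18 °C 1388, 1400.3 and 1384, those at 25 °C 1102 and 1186 and those at 29 °C 919, 892 and 908. Its values were tight in each temperature group and the 29 °C libraries lay below all others (log2 fold change -0.62 ± 0.087 (SE), limma adjusted p = 0.000906). In the pre libraries Ugt37B1 stood at 91.1, 112 and 73.8 normalized reads, at 18 °C at 152, 146 and 158, at 25 °C at 379.9 and 412 and at 29 °C at 342, 385 and 492. Ugt37B1 was 2.68-fold higher at 29 than at 18 °C (log2 fold change 1.40 ± 0.18 (SE), limma adjusted p = 0.000476), with all 5 libraries from 25 and 29 °C above the other 6. Before exposure Ugt50B3 measured 1239.8, 1384 and 1021 normalized reads, and after it 946, 919.8 and 858 at 18 °C, 2027 and 1704 at 25 °C and 1967, 1908 and 2055 at 29 °C. The same split was seen in Ugt50B3 (log2 fold change 1.12 ± 0.11 (SE), limma adjusted p = 0.000134). Of the 16 calls between 29 and 18 °C, 14 were kept under every alternative run.

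Marker lists of other cell types also differed between these groups. Over all genes 10.6% were called here, 5.29% lower and 5.36% higher, and groups did not overlap for 42.9%. The 9 glial genes summed to between 100764 and 108065 normalized reads at 29 °C and between 160505 and 166200 at 18 °C, and 5 of the 9 were called lower. The 10 genes of antennal support cells summed to between 84504 and 105827 at 29 °C and between 163178 and 205790 at 18 °C, with 4 of the 7 that passed the filter called lower and 2 higher. Obp19d and Obp44a, which are not restricted to the antenna, held most of that sum, and Obp19a, a5 and Os-C averaged under 10 normalized reads. The sum of 8 fat body genes overlapped between the groups, at 980481 to 1239640 at 29 °C and 1042210 to 1254430 at 18 °C. It was mostly apolpp and FASN1 and says little of the other genes of the list. Log2 fold changes of the 8 ran between -1.27 and 3.85, with Lsp1beta called higher and AkhR and mdy lower. The 12 photoreceptor genes summed to between 3116420 and 3290180 at 29 °C and between 2255020 and 2382770 at 18 °C, and 5 were called higher.

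Several more lists had sums that did not overlap between 29 and 18 °C, beside 42.9% of all genes taken singly and 10.6% of all genes called. Muscle genes, mostly Mhc and Act57B, summed to between 195155 and 206580 normalized reads at 29 °C and between 137437 and 162301 at 18 °C, with 2 of 9 called higher and 2 lower. Genes of epidermis and cuticle, mostly Cpr72Ec, summed to between 18139.7 and 23116 at 29 °C and between 7600.5 and 10454 at 18 °C. Of these 6 genes 1 was called higher and 2 lower, so the sum does not stand for the list. Midgut genes, mostly LManII, summed to between 44400.2 and 56131 at 29 °C and between 30677 and 34728 at 18 °C, with 2 of the 3 that passed the filter called higher. Haemocyte genes summed to between 22201.8 and 23990.9 at 29 °C and between 18834.7 and 20166.5 at 18 °C, with 2 of 6 called higher. The few testis reads summed to between 33.1 and 45.7 at 29 °C and between 52.8 and 79.9 at 18 °C, with 0 genes called. The part of these shifts in the Gst and Ugt differences was not tested.

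Ageing at the rearing temperature was read from 25 °C against pre. After 10 days at 25 °C, 9 of the 59 genes were higher and 2 lower than in the younger pre flies. Among Gst genes 5 were called higher and 1 lower, and among Ugt genes 4 higher and 1 lower, beside 5.43% of all genes called in either direction (2.77% higher and 2.66% lower). Groups did not overlap for 13 Gst and 11 Ugt genes, beside 30.4% of all genes, and 10 Gst and 8 Ugt genes had an unadjusted p under 0.05, beside 22% of all genes. Family medians were 0.10 for Gst and 0.14 for Ugt. GstZ2 averaged 7029 ± 152 (SD, n = 2) normalized reads at 25 °C and 3901 ± 482 (SD, n = 3) before exposure (log2 fold change 0.86 ± 0.10 (SE), limma adjusted p = 0.00109). Ugt37B1 was 4.29-fold higher at 25 °C than pre (log2 fold change 2.11 ± 0.20 (SE), limma adjusted p = 0.000224), and Ugt50B3 1.54-fold higher (log2 fold change 0.62 ± 0.13 (SE), limma adjusted p = 0.0141). GstE14 was lower, at 756 ± 68.9 (SD, n = 2) at 25 °C and 1303 ± 121 (SD, n = 3) pre (log2 fold change -0.78 ± 0.13 (SE), limma adjusted p = 0.0058).

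GstZ2 and Ugt37B1 were the only calls at 25 °C against pre that were kept under every alternative. The other calls were of smaller size, apart from that of the low-level Ugt303B3. The libraries of GstO1 were at 391, 373 and 287 normalized reads before exposure, 518, 491 and 570.4 at 18 °C, 560.2 and 518 at 25 °C and 449, 490.0 and 499 at 29 °C. Omega-class GSTs reduce dehydroascorbate. GstO1 was lowest before exposure and did not overlap with 25 °C (log2 fold change 0.63 ± 0.14 (SE), limma adjusted p = 0.0217). GstD10 had 237, 217 and 251 normalized reads in the pre libraries, 195, 192 and 269.7 at 18 °C, 403 and 369 at 25 °C and 329, 291 and 277 at 29 °C. Its libraries at 25 °C were the highest of all (log2 fold change 0.71 ± 0.17 (SE), limma adjusted p = 0.0256). Normalized reads of Ugt36E1 were 1926, 2008 and 1637 before exposure, 2696, 2582 and 2412 at 18 °C, 3145 and 2629 at 25 °C and 2854, 2880.2 and 3180.4 at 29 °C. Ugt36E1, known from olfactory neurons where it affects the response to a sex pheromone, was lowest before exposure (log2 fold change 0.64 ± 0.11 (SE), limma adjusted p = 0.00676). For Ugt301D1, the pre libraries held 3557, 3938 and 3297 normalized reads, those at 18 °C 2696, 2599 and 2505, those at 25 °C 2342 and 2520.2 and those at 29 °C 2046, 2326 and 2517. Here the pre libraries were the highest (log2 fold change -0.56 ± 0.10 (SE), limma adjusted p = 0.00862). GstE7 (log2 fold change 0.65) and GstE8 (0.73) were also higher at 25 °C. Without 25 °C replicate 1, when the lone remaining library was assumed to vary like the other groups, 1 Gst and 1 Ugt gene were called, and without pre replicate 1 the Gst count was 3. The 9 muscle genes, mostly Mhc and Act57B, summed to between 162715 and 203851 normalized reads at 25 °C and between 266444 and 358004 pre, and 3 of 9 glial genes were called lower at 25 °C. Sums of the glial and neuron lists also lay below pre without overlap, and those of the fat body, midgut and photoreceptor lists above. Of the antennal support genes 2 of 7 were called higher and 1 lower, and of the fat body genes 1 of 8 higher. The part of these in the differences was not tested.

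Heads after 10 days at 29 °C differed from pre in 19 of the 59 genes. Among Gst genes 1 was higher and 6 lower, and among Ugt genes 5 were higher and 7 lower, with 42.9% of the Ugt genes called, beside 12.8% of all genes (5.92% higher and 6.89% lower). Groups did not overlap for 20 Gst and 15 Ugt genes, beside 41.2% of all genes, and 18 Gst and 16 Ugt genes had an unadjusted p under 0.05, beside 35.3% of all genes. When values were rescaled to equal linear totals, 4 Gst genes were higher and 5 lower, and the all-gene split was 961 higher and 686 lower in place of 751 and 874. Ugt35B1 was 3.43-fold lower at 29 °C than pre (log2 fold change -1.78 ± 0.070 (SE), limma adjusted p = 2.98e-07), Ugt35A1 2.09-fold lower (log2 fold change -1.05 ± 0.15 (SE), limma adjusted p = 0.00096) and Ugt36D1 1.70-fold lower (log2 fold change -0.76 ± 0.087 (SE), limma adjusted p = 0.000228). In the pre libraries Ugt35E2 stood at 237, 206 and 299 normalized reads, at 18 °C at 55.6, 73.0 and 84.7, at 25 °C at 183 and 183 and at 29 °C at 62.8, 68.6 and 61.6. Both 29 and 18 °C libraries lay below those of pre and 25 °C, and Ugt35E2 was lower at 29 °C than pre (log2 fold change -1.91 ± 0.19 (SE), limma adjusted p = 0.000102). Ugt37B1 was 4.41-fold higher (log2 fold change 2.13 ± 0.18 (SE), limma adjusted p = 3.13e-05), Ugt50B3 1.63-fold higher and Ugt36E1 1.60-fold higher. Ugt301D1 (log2 fold change -0.65 ± 0.092 (SE), limma adjusted p = 0.000838) and Ugt302K1 (log2 fold change -0.87 ± 0.23 (SE), limma adjusted p = 0.0208) were lower. Of the 19 calls 13 were kept under every alternative, those of GstD3, GstE8, GstE12, Ugt37A3, Ugt37E1 and Ugt302K1 being the exceptions. The Ugt302K1 call was lost without pre replicate 1 or 2 or 29 °C replicate 1 or 3. The Ugt sum was 34331 ± 1939.8 normalized reads (SD, n = 3) at 29 °C and 42995 ± 808 normalized reads (SD, n = 3) pre.

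The Gst genes lower at 29 °C than pre numbered 6, of the Epsilon and Delta classes. Before exposure GstE2 measured 1433, 1381 and 1374 normalized reads, and after it 1018, 1137 and 1144 at 18 °C, 1124 and 1160.2 at 25 °C and 813, 789 and 813 at 29 °C. Its libraries fell into separate ranges, with pre highest, 18 and 25 °C between and 29 °C lowest (log2 fold change -0.79 ± 0.072 (SE), limma adjusted p = 5.91e-05). GstE12 (log2 fold change -0.59 ± 0.083 (SE), limma adjusted p = 0.000815), GstE13 (log2 fold change -0.64 ± 0.10 (SE), limma adjusted p = 0.00156) and GstE14 (log2 fold change -0.66 ± 0.12 (SE), limma adjusted p = 0.0032) were lower against pre as they were against 18 °C. The libraries of GstD11 were at 167, 181 and 283 normalized reads before exposure, 178, 158 and 163 at 18 °C, 101 and 133 at 25 °C and 124, 58.8 and 99.97 at 29 °C. The pre libraries spread widely, with replicate 3 the highest, but did not overlap with 29 °C (log2 fold change -1.18 ± 0.28 (SE), limma adjusted p = 0.0142). GstD3 had 359.8, 328 and 239 normalized reads in the pre libraries, 261, 333 and 162 at 18 °C, 272 and 251 at 25 °C and 199, 158 and 175 at 29 °C. This difference was near the threshold (log2 fold change -0.78 ± 0.25 (SE), limma adjusted p = 0.0459) and was lost without any of 8 libraries, among them each library at 29 °C. GstE8 was higher at 29 °C (log2 fold change 0.69 ± 0.17 (SE), limma adjusted p = 0.0149), though not without 29 °C replicate 3 or with depth in the model. The 9 glial genes summed to between 100764 and 108065 normalized reads at 29 °C and between 172869 and 183831 pre, 5 of them called lower, and 5 of 9 muscle genes were also lower, while 5 of 12 photoreceptor genes were higher. The 10 genes of antennal support cells summed to between 84504 and 105827 at 29 °C and between 125682 and 183004 pre. Of the 7 that passed the filter, 2 were called higher and 2 lower. All 3 midgut genes over the filter were called higher, and 3 of 6 genes of epidermis and cuticle lower. The part of these lists in the differences was not tested.

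After 10 days at 18 °C the Gst calls against pre all lay on the higher side, among genes that passed the level filter. One of them, GstE10, averaged 6.27 normalized reads pre and 18.9 at 18 °C, and passed the filter through the groups at 18 and 29 °C. GstD5, which averaged 13.97 pre and 5.49 at 18 °C, missed the filter. Of 31 Gst genes 5 were higher and none lower by limma, and of 28 Ugt genes 3 were higher and 2 lower, beside 9.14% of all genes called (4.69% higher and 4.44% lower). Groups did not overlap for 18 Gst and 16 Ugt genes, beside 31.5% of all genes. At an unadjusted p under 0.05, 14 Gst genes had a positive and 3 a negative change, and Ugt genes had 8 and 6, beside 30.8% of all genes. DESeq2 called 5 higher and 1 lower, and edgeR called 5 higher and 0 lower. The median was 0.25 for Gst and 0.01 for Ugt. GstE7 was 2.77-fold higher at 18 °C than pre (log2 fold change 1.47 ± 0.13 (SE), limma adjusted p = 7.27e-05), and all 3 libraries at 18 °C exceeded every library of the other groups. Normalized reads of GstE3 were 2858, 2605 and 2519 before exposure, 3666, 3461 and 4292 at 18 °C, 3141 and 2917 at 25 °C and 2485, 2861 and 3166 at 29 °C. All 18 °C libraries of GstE3 were above the others, with a change just past the threshold (log2 fold change 0.51 ± 0.11 (SE), limma adjusted p = 0.0103). GstO1 (log2 fold change 0.60 ± 0.13 (SE), limma adjusted p = 0.0108) and GstT1 (log2 fold change 0.54 ± 0.15 (SE), limma adjusted p = 0.0326) were also higher. For GstE6, the pre libraries held 3014, 3084 and 3129 normalized reads, those at 18 °C 4112, 3936 and 4179, those at 25 °C 3619 and 3637 and those at 29 °C 3360.1, 3574 and 3831. GstE6 stayed under the fold threshold at 18 °C against pre (log2 fold change 0.41), although its 18 °C libraries lay above all others. GstE7 was the only Gst call kept under every alternative.

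Ugt35E2 was lower at 18 °C than pre, by 3.48-fold (log2 fold change -1.79 ± 0.19 (SE), limma adjusted p = 0.000256), and Ugt37B1 was 1.64-fold higher (log2 fold change 0.73 ± 0.18 (SE), limma adjusted p = 0.0196). The call of Ugt37B1 was lost without pre replicate 1 or 3 or 18 °C replicate 1 or 2. Ugt35E1, at 10.98, 16.1 and 13.1 normalized reads at 18 °C and 45.6, 39.9 and 19.9 pre, was lower as well, a call lost without any of 6 libraries. Of the Ugt calls, that of Ugt35E2 alone was kept under every alternative. Leaving out 1 library brought the Gst count to 3 for pre replicates 1 and 3, 18 °C replicates 1 and 3 and 29 °C replicates 1 and 3. It brought the Ugt count to 2 for pre replicate 1 and 18 °C replicate 1 and to 3 for 18 °C replicate 2, while the highest was 7. Depth differed between these groups, at 51.0 to 123 M reads at 18 °C and 32.1 to 52.4 M reads pre, and with depth in the model 7 Gst genes were higher and 2 lower, while 1 Ugt gene was higher and 4 lower. These were not the same genes. In that fit the calls of GstT1, GstE10 and GstO1 were lost, as were those of Ugt37B1, Ugt37E1 and Ugt303B3. The 9 muscle genes, mostly Mhc and Act57B, summed to between 137437 and 162301 normalized reads at 18 °C and between 266444 and 358004 pre, and 4 of them were called lower. Genes of epidermis and cuticle, mostly Cpr72Ec, summed to between 7600.5 and 10454 at 18 °C and between 12334 and 21947 pre, with 3 of 6 called lower. Of 12 photoreceptor genes 3 were lower as well. Sums of the glial, neuron and haemocyte lists also lay below pre without overlap. The part of these lists in the Gst and Ugt differences was not tested.

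The flies at 29 and 18 °C were then set against flies of the same age at 25 °C, of which there were only 2 libraries. At 29 °C 1 Gst and 3 Ugt genes were lower than at 25 °C and none was higher by limma, edgeR or DESeq2, beside 0.639% of all genes called by limma (0.245% higher and 0.394% lower). At an unadjusted p under 0.05, 0 Gst genes and 1 Ugt gene had a positive change, and 6 Gst and 11 Ugt genes a negative change, beside 10.1% of all genes in either direction. Groups did not overlap for 12 Gst and 14 Ugt genes, beside 27.3% of all genes. The 4 called were Ugt35B1 (log2 fold change -1.45 ± 0.078 (SE), limma adjusted p = 1.39e-05), Ugt35A1 (log2 fold change -0.91 ± 0.17 (SE), limma adjusted p = 0.0416), Ugt35E2 (log2 fold change -1.50 ± 0.21 (SE), limma adjusted p = 0.0106) and GstE2 (log2 fold change -0.50 ± 0.080 (SE), limma adjusted p = 0.0207). Ugt35B1, Ugt35A1 and Ugt35E2 are 3 of the 4 successive Ugt35 genes of the cluster. Ugt35B1 was called whichever library was left out. Without 25 °C replicate 1, 29 °C replicate 1 or 29 °C replicate 3 it was the only one of the 3 Ugt35 genes left, and the calls of Ugt35A1 and of GstE2, the second of which was just past the fold threshold, were each lost without any library of either group. Ugt35A1 was also not called without pre replicate 1 or 18 °C replicate 1 or 2. The 9 glial genes summed to between 100764 and 108065 normalized reads at 29 °C and between 126669 and 134925 at 25 °C, and the groups did not overlap for 7 of them. The 10 genes of antennal support cells summed to between 84504 and 105827 at 29 °C and between 113514 and 170892 at 25 °C, with a10 called higher. Of the photoreceptor genes trp and trpl were called higher. The part of these lists in the differences was not tested.

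At 18 °C 3 Gst genes were higher and 2 lower than at 25 °C, and 1 Ugt gene was higher and 3 lower, beside 3.23% of all genes called (1.55% higher and 1.68% lower). Groups did not overlap for 14 Gst and 13 Ugt genes, beside 31.7% of all genes, and 11 Gst and 10 Ugt genes had an unadjusted p under 0.05, beside 17.9% of all genes. Rescaled to equal linear totals, 0 Ugt genes were higher and 3 lower. GstZ2 was 2.34-fold lower (log2 fold change -1.23 ± 0.10 (SE), limma adjusted p = 0.000312), Ugt37B1 2.61-fold lower (log2 fold change -1.38 ± 0.20 (SE), limma adjusted p = 0.00414), Ugt50B3 2.05-fold lower (log2 fold change -1.03 ± 0.13 (SE), limma adjusted p = 0.00185) and Ugt35E2 2.57-fold lower (log2 fold change -1.37 ± 0.21 (SE), limma adjusted p = 0.00655). GstD10 was lower too (log2 fold change -0.83). GstE7 was 1.77-fold higher (log2 fold change 0.82 ± 0.14 (SE), limma adjusted p = 0.01), with GstE14 (0.68), GstE13 (0.53) and Ugt37D1 (0.52) higher by smaller log2 fold changes. The calls of GstZ2, Ugt37B1 and Ugt50B3 were kept under every alternative. Without 25 °C replicate 1 the Gst count was 1, that of GstZ2, and without 18 °C replicate 1 or 2 it was 2. The glial genes summed to between 160505 and 166200 normalized reads at 18 °C and between 126669 and 134925 at 25 °C, with 2 of 9 called higher. Sums of the photoreceptor, muscle, epidermis and cuticle, midgut and haemocyte lists lay lower at 18 °C without overlap, though 2 of 9 muscle genes were called higher. The sum of the few testis reads lay higher. Of the antennal support genes 1 of 7 was called higher and 2 lower. The part of these lists in the differences was not tested.

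Across all 4 groups the genes fell into several orders, which were chosen for description after the values were seen. In 6 Gst and 4 Ugt genes every library at 29 °C lay below every other library, beside 6.18% of all genes: GstD8, GstE2, GstE9, GstE11, GstE12, GstE13, Ugt35A1, Ugt35B1, Ugt36D1 and Ugt37D1. Ugt303B3 was the only one of the 59 to have every library at 29 °C above all others, beside 5.74% of all genes. In 7 Gst and 3 Ugt genes every library at 18 °C lay above all others, beside 5.74% of all genes. GstD8, GstE12, GstE13 and Ugt37D1 were in both sets, highest at 18 °C and lowest at 29 °C.

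Other orders set the exposed groups apart from pre, or 25 °C apart from the rest. GstE6, GstE7, GstE8, GstO1, GstO2, Ugt36E1, Ugt37B1 and Ugt303B3 were lower in every pre library than in any other, beside 5.17% of all genes. GstE2, Ugt35B1, Ugt35E2 and Ugt301D1 were higher in every pre library, beside 7.51%. GstD10, GstZ2, Ugt49C1 and Ugt303A1 were at their highest in both 25 °C libraries, beside 1.21% of all genes, and 0 genes of either family were at their lowest there, beside 0.86%. Ugt35E2, Ugt37A3 and Ugt303A1 were lower in all libraries at 18 and 29 °C than in all at pre and 25 °C, beside 1.0% of all genes, and GstE10 and Ugt37E1 were higher, beside 0.86%. GstZ2, GstD10, GstE8, Ugt37B1 and Ugt50B3 had all libraries at 25 and 29 °C above those of pre and 18 °C, beside 3.92% of all genes, and GstD11, GstE12, GstE14 and Ugt36D1 had them below, beside 4.16%. In GstZ2, Ugt35E1 and Ugt50B3 the 18 °C libraries lay below all others, beside 5.37% of all genes.

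The Sigma-class gene and several neighbours of called genes were called in no comparison. In the pre libraries GstS1 stood at 6849, 5981 and 7019.8 normalized reads, at 18 °C at 7642, 6993 and 9003, at 25 °C at 6888 and 8525 and at 29 °C at 7149, 7937 and 7799. GstS1, the Sigma-class enzyme of muscle and neurons that conjugates 4-hydroxynonenal, was not called in any comparison. Before exposure GstD9 measured 2907, 2325 and 3967 normalized reads, and after it 1916, 1785 and 2019 at 18 °C, 1847 and 3366 at 25 °C and 2255, 2599 and 2012 at 29 °C. These groups overlapped in all comparisons but 18 °C against pre, and GstD9 was not called. The libraries of GstD2 were at 154, 128 and 608 normalized reads before exposure, 313, 439.7 and 541 at 18 °C, 231 and 326 at 25 °C and 655, 503 and 293 at 29 °C. GstD2 spread widely before exposure, with pre replicate 3 several times above the other pre libraries, and its log2 fold change of 1.00 at 29 °C against pre was not called. GstE1 had 881 to 1713 and GstE5 161 to 269 normalized reads over the 11 libraries, and neither was called. GstO2 (3129 to 4293), GstO3 (2476 to 4299.6), GstT2 (604 to 805) and Ugt36F1 (718 to 1088) were likewise not called. Over the uncalled genes with a mean of 50 or more, the log2 fold changes of the 6 comparisons ran between -0.65 and 1.00 in 14 Gst genes and between -0.51 and 0.43 in 7 Ugt genes.

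Genes with few reads were among those called. Ugt303B3 had 0, 4.56 and 0 normalized reads in the pre libraries, 11.7, 9.01 and 14.3 at 18 °C, 13.7 and 21.3 at 25 °C and 27.2, 42.5 and 44.3 at 29 °C. Ugt303B3 was near or under the 3-read floor before exposure and at its highest at 29 °C, and it was called higher than pre at 29 °C (limma adjusted p = 0.00087), 25 °C (0.0172) and 18 °C (0.0146). No fold is given for it, since the size of a fitted change then depends on the pseudocount. With a mean of 1.52 pre, Ugt303B3 passed the level filter only through the exposed groups, in which it was called higher. Normalized reads of Ugt37E1 were 7.86, 6.84 and 11.97 before exposure, 61.0, 43.2 and 25.1 at 18 °C, 19.2 and 8.51 at 25 °C and 33.1, 30.5 and 35.3 at 29 °C. Ugt37E1 was called higher than pre at 29 °C (log2 fold change 1.81 ± 0.40 (SE), limma adjusted p = 0.00992) and 18 °C (log2 fold change 2.10 ± 0.40 (SE), limma adjusted p = 0.00683). GstE10 had 20.6, 17.1 and 19.1 normalized reads at 18 °C and 3.14, 5.70 and 9.97 pre, and Ugt37A3 had 13.6, 26.1 and 25.6 at 29 °C and 39.3, 38.8 and 49.9 pre. GstE10 was called higher at 18 °C and Ugt37A3 lower at 29 °C, each a call lost when any of several libraries was left out. The 8 genes that missed the level filter were GstD4, GstD5, GstD6, Ugt35D1, Ugt37A2, Ugt303B2, Ugt304A1 and Ugt307A1, with means between 3.33 and 9.85 normalized reads.

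Genes that supply or regulate the conjugation reactions were counted from lists of 36 genes. Between 29 and 18 °C 4 of the 36 were higher and 3 lower, which is 19.4%, beside 10.6% of all genes. Lower at 29 °C were Idh, an NADP-dependent isocitrate dehydrogenase that supplies NADPH (log2 fold change -0.94, limma adjusted p = 0.00171), and UGP, which makes UDP-glucose (-0.57, limma adjusted p = 0.024). The third was sepia (se), an Omega-type GST that makes a precursor of the red eye pigment (1049.9 ± 123 normalized reads (SD, n = 3) at 29 °C and 1878 ± 279 normalized reads (SD, n = 3) at 18 °C, log2 fold change -0.84, limma adjusted p = 0.00969). GstO2, which overlaps se antisense over 61 nt, was not called. Higher were the mitochondrial thioredoxin reductase Trxr2 (1.13), the ABC transporter genes Mdr50 (3756 ± 370.1 normalized reads (SD, n = 3) at 29 °C and 206 ± 41.7 normalized reads (SD, n = 3) at 18 °C, log2 fold change 4.20, limma adjusted p = 5.17e-06) and CG10505 (0.61), and maf-S (0.52), the DNA-binding partner of the detoxification regulator CncC.

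The gene of CncC itself, cnc, was higher at 29 °C than pre (31829.9 ± 596 normalized reads (SD, n = 3) at 29 °C and 21853 ± 1355 normalized reads (SD, n = 3) pre, log2 fold change 0.54, limma adjusted p = 0.000484), beside Mdr50 higher and Idh and se lower, 4 of 36 in all (11.1%, beside 12.8% of all genes). Its inhibitor Keap1 averaged 2262 ± 183 normalized reads (SD, n = 3) at 29 °C, 2303 ± 234 normalized reads (SD, n = 3) at 18 °C and 1975 ± 353 normalized reads (SD, n = 3) pre, and was not called. At 25 °C against pre 5.56% of the 36 were called, beside 5.43% of all genes: malic enzyme (Men, another NADPH source, 0.52) and Mdr50 (3.23) were higher and none was lower by limma or edgeR, with 1 lower by DESeq2 and 4 negative at an unadjusted p under 0.05. At 18 °C against pre 13.9% were called, beside 9.14% of all genes: Men (0.61) and ss (0.59, with overlapping groups) were higher and Trxr2 (-1.20), Mdr49 (-0.66) and CG10505 (-0.81) lower. Gclm, the regulatory subunit of the enzyme that limits glutathione synthesis, was higher at 18 than at 25 °C (6397 ± 168 normalized reads (SD, n = 3) at 18 °C and 3911 ± 56.5 normalized reads (SD, n = 2) at 25 °C, log2 fold change 0.71, limma adjusted p = 0.00114), where Mdr50 and CG10505 were lower and 8.33% of the 36 were called, beside 3.23% of all genes. Between 29 and 25 °C none of the 36 was called by limma, edgeR or DESeq2, and 4 had an unadjusted p under 0.05. Gclc, the catalytic subunit, averaged 8407 ± 269.6 normalized reads (SD, n = 3) at 29 °C, 7780.3 ± 575 normalized reads (SD, n = 3) at 18 °C and 7640.0 ± 761 normalized reads (SD, n = 3) pre and was not called in any comparison.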

How the data were processed

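RNA from heads was depleted of ribosomal RNA and sequenced. Per the study's methods, the authors aligned reads to dm6 with STAR, counted them per gene with featureCounts and normalized them with DESeq2 size factors. The deposited signal values are these normalized reads, and the versions, the strand setting and the treatment of reads with several positions are not given in the sources used here. The size factors were computed over linear and circular transcripts together, which share the deposited table. Values stepped by what 1 read is worth, so whole reads were recovered for 100% of values (tolerance 0.01) and gave the depth per library.

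Linear genes averaging 10 or more were tested with limma 3.58.1 (R 4.3.3, intensity trend) on log2(value + 1) in 1 fit of all 11 libraries and 4 groups, with Benjamini-Hochberg adjustment over 12676 genes. A log2 fold change is on this scale and understates the change of low genes, while an N-fold value is the ratio of the groups' mean normalized reads. edgeR 4.0.16 (quasi-likelihood) called 1385 genes for 29 against 18 °C on the recovered reads, and limma 1349. DESeq2 1.42.0 was also run. The genes, lists and tests were chosen with earlier results of these data known. Per-library values were given by rule for called genes averaging 50 or more, the 3 highest of each family and neighbours in gene clusters. Coordinates are from Ensembl release 115 (BDGP6, as dm6). A planned search of promoter motifs was not run, since no sequences were used here. Marker and pathway genes whose symbols found no match were not analysed here. Alternatives were another pseudocount, other filters and scalings, a replicate block, a depth covariate, fits of only the 2 groups compared, edgeR, DESeq2, leaving out each library and, chosen after seeing the data, the first component within groups as a covariate.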

Additional observations from a re-analysis of the deposited data

How the results depend on the processing

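Of the 69 calls, 35 were kept under every alternative and 0 reversed. Counts of called genes changed by over 1.5 times as follows. For 25 °C against pre, a fit of only the 2 groups compared called 1 Gst and 1 Ugt gene, and leaving out 1 library gave 1 to 6 Gst and 1 to 5 Ugt genes. For 18 °C against pre, the Gst count was 9 with depth as a covariate, where GstE10, GstO1 and GstT1 were no longer called. It was 3 with only the 2 groups (3 to 6 without 1 library). The Ugt count there was 2 with a mean filter of 50 and 2 with only the 2 groups (2 to 7 without 1 library). For 29 against 25 °C, the Gst count was 0 with linear totals equal, 0 with the replicate block, 0 with only the 2 groups, 2 with depth and 2 with the first component (0 to 1 without 1 library), and the Ugt count was 1 to 3 without 1 library. For 18 against 25 °C, only the 2 groups gave 2 Gst and 2 Ugt genes, DESeq2 7 Ugt genes and the first component 7 Ugt genes (1 to 5 Gst and 3 to 5 Ugt genes without 1 library). Over all genes, only the 2 groups called 120 for 25 °C against pre in place of 688, and the first component 1382. For 18 °C against pre the first component called 1857 and the fit without 18 °C replicate 1 called 718, in place of 1158. Without 29 °C replicate 1 the count for 29 against 25 °C was 38, and without 18 °C replicate 1 that for 18 against 25 °C was 208. For 29 against 25 °C, only the 2 groups gave 30, DESeq2 232, depth 163 and the first component 368 in place of 81, and for 18 against 25 °C these gave 87, 682, 722 and 936 in place of 410. The comparisons with 25 °C rest on 2 libraries there, and those with pre on libraries of 32.1 to 52.4 M reads.

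Deviations of libraries with the same replicate number correlated between -0.47 and 0.47. Between pre and 18 °C they correlated at -0.06, 0.47 and 0.43 for replicates 1, 2 and 3. With 2 libraries at 25 °C the deviations there mirror each other, so their correlations come in pairs of opposite sign. The range therefore cannot decide whether the numbers pair the libraries. With the replicate block, 25 °C against pre had 4 Gst and 5 Ugt genes called, 18 °C against pre 5 and 4, and 18 against 25 °C 4 and 3, while the counts for 29 against 18 °C and 29 °C against pre stayed at 8 and 8 and at 7 and 12. Within groups, the first component held 48.4% of the variance, with pre 3, 18 °C 3 and 25 °C 2 on one side and pre 2, 18 °C 2 and 25 °C 1 on the other.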
